A study of Mus musculus with 8 samples.

Results

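Cytosolic ribosomal proteins were followed with every probe set whose annotation gave a single symbol of the forms Rpl, Rps, Rplp or Rpsa, with pseudogene symbols left out. This rule found 104 probe sets for 48 genes among 45037 probe sets and 18193 genes on the array. By their symbols alone, 26 were assigned to the large and 22 to the small ribosomal subunit. Of these genes, 45 were bright enough to test among 12599 genes tested. The others, Rps16, Rpl39l (a paralog of Rpl39) and Rpl3l (a paralog of Rpl3), were too dim on their probe sets under a single symbol. The names do not cover the whole ribosome: 110 further probe sets carry the symbol of such a gene together with another symbol, and Rplp1, Rpl5, Rpl3, Rpl10 and Rps27a are among the genes with no probe set under a single symbol, so the comparisons below do not include them.

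The cytosolic ribosome is built in the nucleolus and cytoplasm from ribosomal RNA and a fixed set of proteins, most of them from single genes that are read at high and coordinated rates. In mammals their mRNAs begin with a pyrimidine tract, the TOP motif, through which growth signals set their translation more than their amount. In blood formation, loss of single ribosomal proteins is known from Diamond-Blackfan anaemia and from deletions of chromosome 5q.

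The 8 arrays came from 32Dcl3 cells, a mouse line of early myeloid cells that depends on interleukin-3 (IL-3) and can mature along the neutrophil path in granulocyte colony-stimulating factor (G-CSF). One culture carried the retroviral construct pMYs-FLAG-ASXL1-MT-IG, which encodes FLAG-tagged mutant ASXL1, a chromatin regulator (ASXL1-MT), and the other carried the empty construct pMYs-IG (mock). Both were measured in IL-3 (0 h) and after 2, 6 and 24 h in G-CSF, 1 array per condition. The sources used here do not say whether the transduced cells were a clone or a pool, from which species the ASXL1 sequence came, whether time points were separate cultures, or whether IL-3 was still present in G-CSF. No condition was replicated, so errors are standard errors of 1 additive limma fit on time point and construct, so the spread is taken from how the 2 cultures disagree once both terms are fitted, and the p-values may reflect technical spread only. Of 13 myeloid markers on the array 10 lay at an estimated level of 8 or more, including Mpo, Elane, Prtn3 and Csf3r, as did 3 of 5 markers of mast cells, basophils and eosinophils (Mcpt8, Cpa3 and Epx), 2 of 4 of megakaryocytes (Pf4 and Itga2b) and 1 of 4 of fibroblasts, against 0 of 3 erythroid and 0 of 5 lymphoid markers. The values are log2 expression of each probe set minus its own median over the 8 arrays, so they compare arrays and not genes.

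Probe sets of these genes were among the steadier ones on the arrays. Of the 104 probe sets, 89 lay at an estimated level of 8 or more before centring, 11 at 4 to 8 and 4 below 4. The 89 bright probe sets had a median SD over the 8 arrays of 0.112, against 0.256 for all 13957 probe sets of that level. An SD under 0.15 was found in 67.4% of them and in 17.4% of the 13957. Their SDs still ran from 0.066 (Rpl22l1) to 0.730 (a probe set of Rpl41), and the results below concern the few that stand apart from the rest. Over all probe sets the median SD was 1.346 below level 4, 0.722 at 4 to 8 and 0.256 at 8 or more. Levels above 8 could not be ordered in this centred table, so whether the low SD goes with level within the top class was not tested.

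Across arrays the middle of the family moved little. The median over the 45 tested genes was -0.04, 0.01, 0.05 and 0.13 in ASXL1-MT cells in IL-3 and at 2, 6 and 24 h, and -0.15, -0.01, -0.02 and 0.03 in mock cells. Over all 13957 probe sets of level 8 or more the medians stayed between -0.01 and 0.02. The IL-3 array was the lowest and the 24 h array the highest of the 4 in each culture. In bulk RNA, fewer cells of a type and less RNA per cell cannot be told apart, and neither can a change in the total RNA that each array was scaled to.

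**Figure D1:**
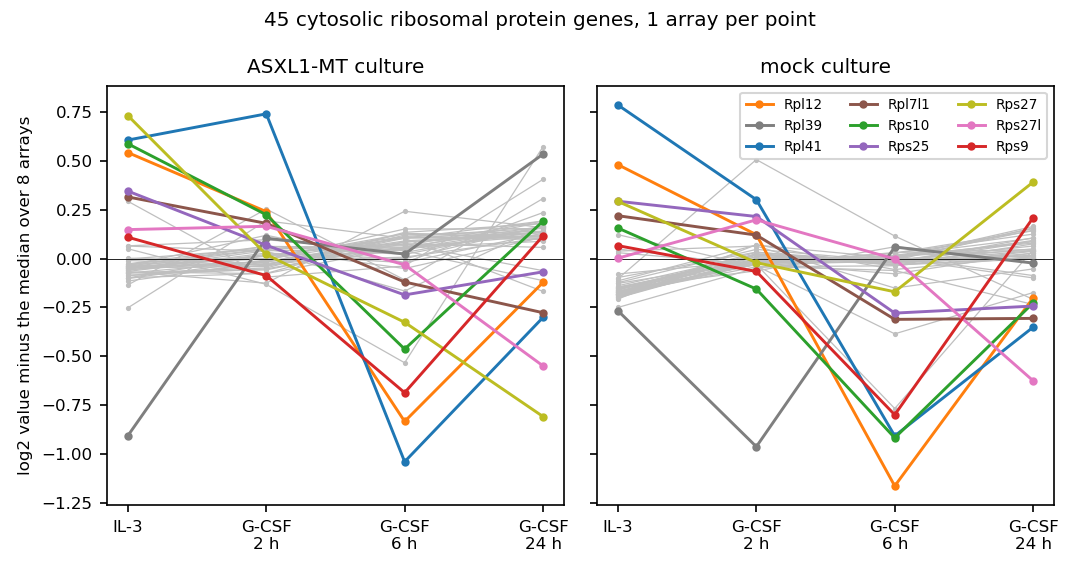
Values of the 45 tested ribosomal protein genes on each array, as log2 expression minus the gene's median over the 8 arrays, with ASXL1-MT cells on the left and mock cells on the right. Thin grey lines are single genes, most of which stayed close together, and thick lines are the 7 genes called lower at 6 or 24 h in G-CSF together with Rpl39 and Rps27, which were not called.

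After 2 h in G-CSF no ribosomal protein gene passed the test at a false discovery rate of 0.05 over all genes (0 of 45, background 0% of 12599 genes; with limma 3 members and 1062 genes had an unadjusted p under 0.05). The median difference between G-CSF at 2 h and IL-3 was 0.10 over the members and -0.00 over all genes, with a median standard error of 0.09, and 34 of 45 members lay above 0 against 49% of all genes. The highest were Rps3, a protein at the mRNA entry site that also nicks damaged DNA (0.53 ± 0.12), Rpl37 (0.27 ± 0.12), Rps20 (0.18), Rpl39 (0.16 ± 0.45) and Rps7 (0.16). The lowest were Rps27 (-0.51 ± 0.43), Rps10 (-0.34 ± 0.08), Rpl12 (-0.33 ± 0.10), Rps6 (-0.18 ± 0.17) and Rps25 (-0.18 ± 0.11).

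After 6 h, 6 of the 45 genes were lower than in IL-3 and 0 were higher, where 7.74% of all genes were lower and 10.5% higher. By limma 9 of 45 members and 4400 of 12599 genes had an unadjusted p under 0.05 in either direction. The median member difference was 0.12, close to the 0.11 of all genes, and 33 of 45 members lay above 0 against 58.3% of all genes. The members that fell were Rpl41, Rpl12 and Rpl7l1 of the large subunit and Rps10, Rps9 and Rps25 of the small subunit. All 6 were represented by probe sets of the plain _at type, which the rule for representing a gene takes first within a level class. Among bright member probe sets the median difference at 6 h was -0.33 for the _at type and 0.13 for the _a_at type. Of the 6 genes only Rpl7l1 had no probe set above 0, counting those shared with gene models. The count of 6 therefore holds for this rule only. When an IL-3 or a 6 h array of either culture was left out, limma called 0 members and 0% of all genes, and when a 2 h or 24 h array was left out it called 3 members lower, with 2.6% or 2.96% of all genes. The differences themselves moved less, for Rpl12 between -1.63 and -1.39 and for Rps10 between -1.08 and -1.04. Averaging all probe sets of a gene gave 4 members lower at 6 h, Rpl12, Rpl41, Rpl7l1 and Rps20, and 0 higher, where 5.57% and 7.2% of all genes were lower and higher.

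Rpl12, which sits at the base of the stalk that recruits elongation factors, had values of 0.54 in IL-3 and 0.24, -0.83 and -0.12 at 2, 6 and 24 h in ASXL1-MT cells. In mock cells it had 0.48, 0.12, -1.16 and -0.20 at the same times. Both 6 h arrays were the lowest of their culture and lay below all other arrays, and both 24 h arrays lay between the 6 h and the IL-3 arrays. The difference from IL-3 was -1.51 ± 0.10 at 6 h (limma adjusted p = 0.0111) and -0.67 ± 0.10 at 24 h (adjusted p = 0.0183). The step between 24 h and 6 h was itself called, at 0.84 ± 0.10 (adjusted p = 0.0372). A further pair of probe sets, which carry the symbol Rpl12 together with gene models, both measured 0.13 at 6 h and measured 0.21 and 0.26 at 24 h, and was not called, so the fall belongs to 1 of 3 probe sets.

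Rpl41, the smallest ribosomal protein, which lies at the bridge between the subunits, had 0.61 in IL-3 and 0.74, -1.04 and -0.30 at 2, 6 and 24 h in ASXL1-MT cells. In mock cells the values were 0.79, 0.30, -0.91 and -0.35. The 6 h arrays were again the lowest of each culture, and the IL-3 and 2 h arrays did not overlap with the 6 h and 24 h arrays. The difference from IL-3 was -1.67 ± 0.18 at 6 h (adjusted p = 0.0153) and -1.02 ± 0.18 at 24 h (adjusted p = 0.0248).

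Rps10, a small subunit protein mutated in some cases of Diamond-Blackfan anaemia, had 0.59, 0.22, -0.46 and 0.19 in ASXL1-MT cells in IL-3 and at 2, 6 and 24 h. In mock cells it had 0.16, -0.16, -0.92 and -0.23. ASXL1-MT cells were the higher at each time, and the 6 h array was the lowest of each culture. The difference from IL-3 was -1.06 ± 0.08 at 6 h (adjusted p = 0.0111) and -0.39 ± 0.08 at 24 h (adjusted p = 0.0290), with a step of 0.67 ± 0.08 between 24 h and 6 h (adjusted p = 0.0334).

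Rps9, a protein near the mRNA entry channel, had 0.11, -0.09, -0.69 and 0.12 in ASXL1-MT cells over the same series and 0.07, -0.07, -0.80 and 0.21 in mock cells. The 6 h arrays lay far below the other 6 arrays, which overlapped. The difference from IL-3 was -0.83 ± 0.09 at 6 h (adjusted p = 0.0152) and 0.08 ± 0.09 at 24 h (adjusted p = 0.591), and the step between 24 h and 6 h was 0.91 ± 0.09 (adjusted p = 0.0316).

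Rps25, a protein of the small subunit head that some viral RNAs need to start translation, had 0.35, 0.07, -0.19 and -0.07 in ASXL1-MT cells and 0.29, 0.22, -0.28 and -0.24 in mock cells. Its difference from IL-3 was -0.55 ± 0.11 at 6 h (adjusted p = 0.0424) and -0.47 ± 0.11 at 24 h (adjusted p = 0.0439). A further probe set shared by Rps25 and gene models measured 0.22 ± 0.11 at 6 h and 0.36 ± 0.11 at 24 h and was not called. Rpl7l1, a paralog of Rpl7, had 0.32, 0.18, -0.12 and -0.28 in ASXL1-MT cells and 0.22, 0.12, -0.31 and -0.31 in mock cells. It differed from IL-3 by -0.48 ± 0.08 at 6 h (adjusted p = 0.0332) and -0.56 ± 0.08 at 24 h (adjusted p = 0.0173). In both genes the 6 h and 24 h arrays lay below the IL-3 and 2 h arrays, without overlap.

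Other members were as low at 6 h but did not pass. Rps24, a further small subunit protein mutated in Diamond-Blackfan anaemia, differed by -0.69 ± 0.18 (adjusted p = 0.0733) and was 0.96 ± 0.18 higher at 24 h than at 6 h (adjusted p = 0.0586). Rps27, a zinc finger protein of the small subunit, differed by -0.76 ± 0.43 (adjusted p = 0.289) on its probe set under a single symbol. A further probe set, which carries Rps27 together with Rps27rt, measured 0.21 ± 0.12 at 6 h and was not called. The highest 6 h differences were those of Rpl39 (0.63 ± 0.45), Rps3 (0.29 ± 0.12), Rps15 (0.25 ± 0.11), Rps18 (0.23 ± 0.08) and Rps3a1 (0.23 ± 0.08), and none was called.

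After 24 h, 6 of 45 members were lower than in IL-3 and 0 higher, where 12.5% of all genes were lower and 15.3% higher. By limma 20 of 45 members and 5184 of 12599 genes had an unadjusted p under 0.05 in either direction. The members that fell were Rpl41, Rpl12, Rps27l, Rpl7l1, Rps25 and Rps10, 5 of which had also fallen at 6 h. Those 5 were represented by probe sets of the plain _at type, and Rps27l by one of the _a_at type. When an IL-3 or a 24 h array of either culture was left out, limma called 0 members and 0% of all genes, and when a 2 h or a 6 h array was left out it called 4 or 3 members lower, with 8.6% or 7.68% of all genes. The difference of Rpl12 then lay between -0.73 and -0.62 and that of Rps27l between -0.73 and -0.59. Averaging all probe sets of a gene gave 3 members lower, Rpl12, Rps27l and Rpsa, and 1 higher, Rpl22, where 8.56% and 12% of all genes were lower and higher.

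Rps27l, a paralog of Rps27 known in human cells as a target of p53 and a partner of Mdm2, fell at 24 h without having been called at 6 h. It had 0.15, 0.17, -0.03 and -0.55 in ASXL1-MT cells in IL-3 and at 2, 6 and 24 h, and 0.00, 0.20, -0.00 and -0.63 in mock cells. The 24 h arrays lay below all 6 others. The difference was -0.66 ± 0.09 between 24 h and IL-3 (adjusted p = 0.0142), -0.57 ± 0.09 between 24 h and 6 h (adjusted p = 0.0469) and -0.09 ± 0.09 between 6 h and IL-3 (adjusted p = 0.529). Mdm2, Mdm4 and Cdkn1a, of the p53 pathway through which free ribosomal proteins are known to signal, were measured, and by limma 0 of 3 were called at 6 or 24 h, with 0 at an unadjusted p under 0.05.

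Most of the other members lay slightly above IL-3 at 24 h, without passing the test. Of the 45 genes 34 had a positive difference, against 55.4% of all genes, and the median was 0.19 over members and 0.09 over all genes. With each array centred on its own median these medians were 0.10 and 0.00. Myeloid markers moved at the same time, with 11 of 12 tested higher at 24 h than in IL-3, where 15.3% of all genes were. So did 4 of 4 markers of mast cells, basophils and eosinophils. Of the other markers, 1 of 3 of megakaryocytes was higher, and of 2 erythroid markers 1 was higher and 1 lower. Lymphoid and fibroblast markers gave 0 of 2 called each. The part of these markers in the ribosomal protein values was not tested. The highest were Rpl39, a protein of the exit tunnel (0.84 ± 0.45), Rpl37 (0.38 ± 0.12), Rps18 (0.30 ± 0.08), Rps3a1 (0.30 ± 0.08) and Rps29 (0.30 ± 0.09), with adjusted p between 0.0583 and 0.245. How many of these small differences were called varied with the filter and the variance prior. Restricted to genes above the 70th percentile of level, limma called 13 of 45 members higher (28.9%), against 28.8% of the 7687 genes then tested, and 7 lower, against 26.3%. At 6 h this restriction gave 1 member higher, Rps18, where 26.1% of genes were higher, and 8 lower, where 19% were. With a variance prior that follows the level it called 10 higher (22.2%), against 17.9% of genes, and 7 lower, against 15.7%.

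**Figure D2:**
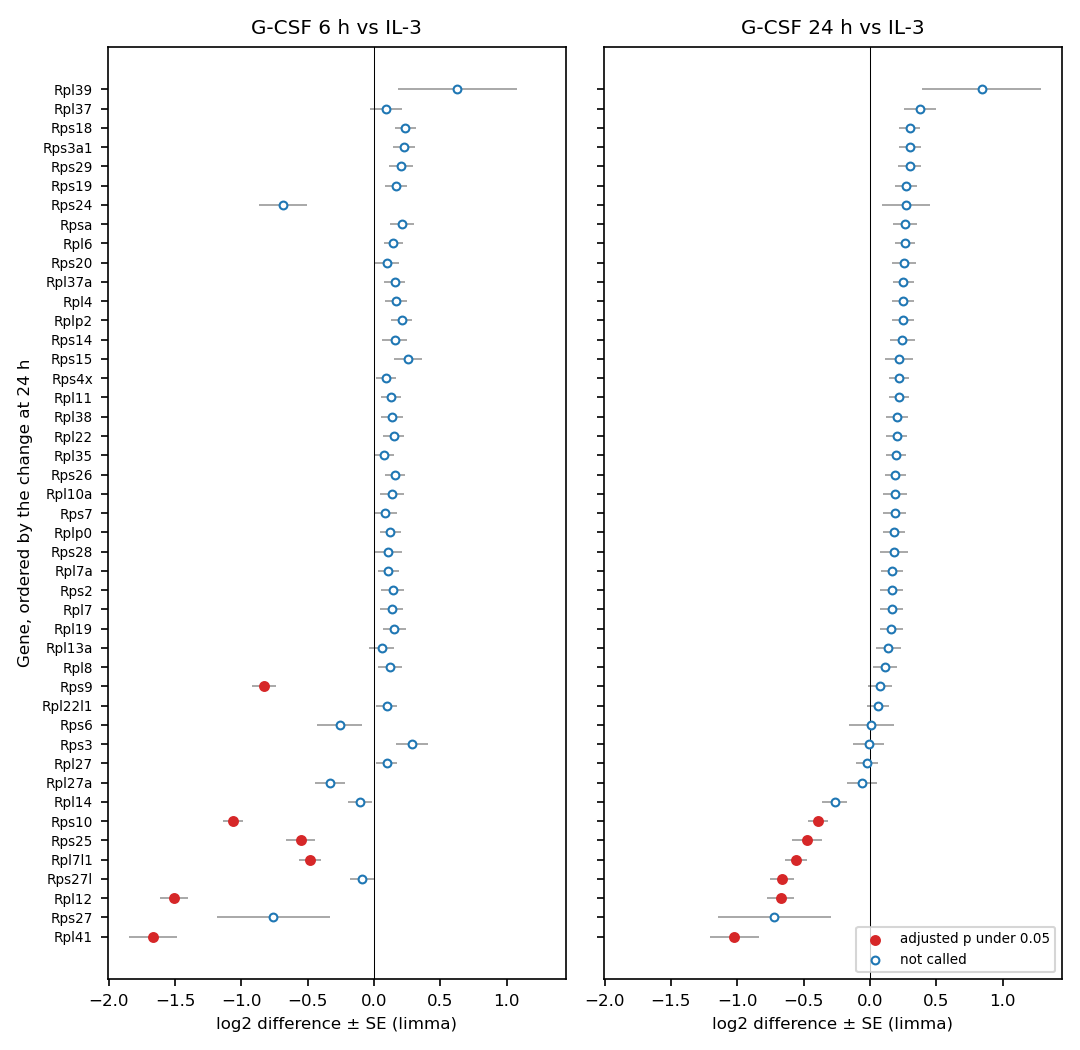
Log2 difference of each tested ribosomal protein gene between G-CSF at 6 h (left) or 24 h (right) and IL-3, with its standard error from limma, genes ordered by the 24 h value. Filled points passed an adjusted p of 0.05. Most genes form a narrow column just right of 0, and the called genes all lie to the left of it.

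By role, the measured P proteins of the stalk lay in the narrow column. Rpl12 at its base lay below it only on the probe set that represented it. The pair that Rpl12 shares with gene models measured 0.13 at 6 h, within the column. Rplp0, the scaffold of the acidic stalk, differed by 0.12 ± 0.08 at 6 h and 0.18 ± 0.08 at 24 h, and Rplp2, one of its acidic proteins, by 0.21 ± 0.08 and 0.25 ± 0.08. Rpl11, which carries the 5S RNA and binds Mdm2 when free, differed by 0.12 ± 0.08 at 6 h and 0.22 ± 0.08 at 24 h. Rps6, the substrate of the S6 kinases, differed by -0.26 ± 0.17 and 0.01 ± 0.17. Rps19 and Rps26, which are mutated in Diamond-Blackfan anaemia, differed by 0.27 ± 0.08 and 0.19 ± 0.08 at 24 h, and Rps14, the gene of the 5q deletion, by 0.24 ± 0.09. None of these passed at either time. Rpsa, a small subunit protein also known as a laminin receptor, measured 0.26 ± 0.09 at 24 h on the probe set that represented it (adjusted p = 0.103).

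At 24 h the other named members, Rpl10a, Rpl7a, Rpl38, Rpl13a and Rps3, lay between -0.01 and 0.21, and none was called. Rpl38 is known in mice for its part in the translation of Hox mRNAs, and Rpl13a for a regulatory role outside the ribosome. Apart from those already named, the low end at 24 h held Rpl14 (-0.27 ± 0.09, adjusted p = 0.103) and Rpl27a (-0.06 ± 0.12). Between 24 h and 6 h the members called higher were Rps9, Rpl12 and Rps10 and the member called lower was Rps27l, 3 and 1 of 45 where 3.62% and 3.24% of all genes were called. The median of that step was 0.08 over members, of which 37 lay above 0, against 49.7% of all genes. The other extremes of that step that were not called were Rps24 (0.96 ± 0.18, the highest of all members) and Rpl41 (0.65 ± 0.18) upward and Rps3 (-0.30 ± 0.12), Rpl14 (-0.16 ± 0.09), Rpl27 (-0.12) and Rpl7l1 (-0.08) downward.

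Paralogs did not move like their parent genes in every case, but no difference between a pair was tested. Rpl7l1 fell at 24 h (-0.56 ± 0.08), while Rpl7 measured 0.16 ± 0.09. Rps27l fell by 0.66 ± 0.09 on the log2 scale at 24 h. Rps27 measured -0.72 ± 0.43 on its probe set under a single symbol, with cultures that went opposite ways, as described below. Rpl22l1 measured 0.06 ± 0.08 and its parent Rpl22, known for its part in T cell development in mice, 0.20 ± 0.08. Rps4x measured 0.22 ± 0.08. Rpl39l and Rpl3l, at levels of 3.5 and 4.8, were too dim to compare with Rpl39.

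Of the 48 genes, 24 had more than 1 probe set, up to 6, and for several of them the probe sets told different stories. Across the 20 genes with at least 2 probe sets of level 8 or more, the median within-gene correlation over the 8 arrays had a median of 0.67, and it was above 0.8 for 8 genes. All probe sets of 1 gene share the same 8 RNA samples. The 3 probe sets of Rps27l correlated at 0.99 and measured between -0.69 and -0.60 at 24 h. The 3 probe sets of Rpl7l1 correlated at 0.82 to 0.86 and measured between -0.50 and -0.48 at 6 h. At 24 h they measured -0.56, -0.41 and -0.29, of which the first was called and the others were not (adjusted p = 0.163 and 0.0985). For these paralogs every probe set measured a difference of the same direction. Rpl12 and Rps25 had 1 probe set each under a single symbol, and those they share with gene models did not go the same way.

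The probe sets of Rpl41, Rps10 and Rps9 also disagreed. At 6 h 2 probe sets of Rpl41 measured -1.67 and -1.47, and the other two measured 0.24 and 0.20. At 24 h the same pairs measured -1.02 and -0.92 against 0.76 and 0.22. The values of 1422623_x_at, 1 of the pair that did not fall, were -0.07, -0.30, -0.06 and 0.42 in ASXL1-MT cells and -0.41, 0.11, 0.06 and 0.61 in mock cells. Of 6 bright probe sets of Rps10, the 1 that represented the gene, 1436384_at, measured -1.06 at 6 h and the others between -0.22 and 0.17. Averaged over its probe sets Rps10 measured -0.12 at 6 h (adjusted p = 0.508) and 0.06 at 24 h (adjusted p = 0.727). Of 3 for Rps9, 1426958_at measured -0.83 and the others 0.09 and 0.21, with a mean over probe sets of -0.18 (adjusted p = 0.421). For Rpl41 the mean over probe sets was -0.67 at 6 h (limma adjusted p = 0.0327) and -0.24 at 24 h (adjusted p = 0.185). The 6 h mean was still called, but the fall in it comes from the same pair. The calls on Rps10, Rps9 and Rpl41 therefore belong to single probe sets or a pair of them rather than to the gene.

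Fitted singly, 97 member probe sets were tested, of which 9 from 8 genes were lower and 0 higher at 6 h, where 4.81% and 5.97% of 29305 probe sets were. At 24 h 7 from 5 genes were lower and 1 was higher, where 8.37% and 11.8% of probe sets were. The probe set that rose at 24 h was 1448398_s_at of Rpl22. It had -0.07, -0.08, -0.04 and 1.38 in ASXL1-MT cells in IL-3 and at 2, 6 and 24 h, and 0.15, -0.13, 0.04 and 1.16 in mock cells. Its difference between 24 h and IL-3 was 1.23 ± 0.14 (adjusted p = 0.0154), while the other two probe sets of Rpl22 both measured 0.20. Rpsa had the opposite case. The probe set 1416196_at, at an estimated level of 6.3, had 0.30, -0.00, 0.00 and -0.86 in ASXL1-MT cells and 0.63, -0.22, 0.32 and -0.74 in mock cells, a difference at 24 h of -1.27 ± 0.18 (adjusted p = 0.0202), against 0.26 ± 0.10 for the brighter probe set.

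Low values at 6 h were unevenly spread over the types of probe set, a difference that was not tested. In the naming scheme of the maker, plain _at sets match 1 transcript, _a_at sets transcripts of 1 gene, _s_at sets transcripts of several genes, and _x_at sets hold probes that may bind unrelated sequences. Of 100 member probe sets of level 4 or more, 17 from 12 genes were at or under -0.50 at 6 h, and 13 of the 17 were of the plain _at type. Among the 21 bright _at sets 7 were this low, with a median of -0.33 over the 21. Among the 27 bright _a_at sets 0 were, with a median of 0.13, and among the 38 bright _x_at sets 2 were, with a median of 0.11. Over all bright _at sets on the array the median was 0.06 and 13.7% were at or under -0.50, and over all bright _a_at sets 0.08 and 10.9%. Each of the 17 was higher at 24 h than at 6 h, by 0.04 to 3.12, but they were picked for their low 6 h values and this describes them only. Of the 12 genes, 8 had another bright probe set above 0 at 6 h. The 17 included 1454833_at of Rpl35 (-2.04 at 6 h, -0.53 at 24 h), 1453466_at of Rps6 (-1.97 and 1.15), 1421838_at of Rps18 (-1.47 and -0.48) and 1450417_a_at of Rps20 (-1.10 and -0.58), all at levels between 4 and 8. For Rpl35, Rps18 and Rps20 every bright probe set measured between 0.03 and 0.23 at 6 h. What each probe set matches within its gene was not tested.

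**Figure D3:**
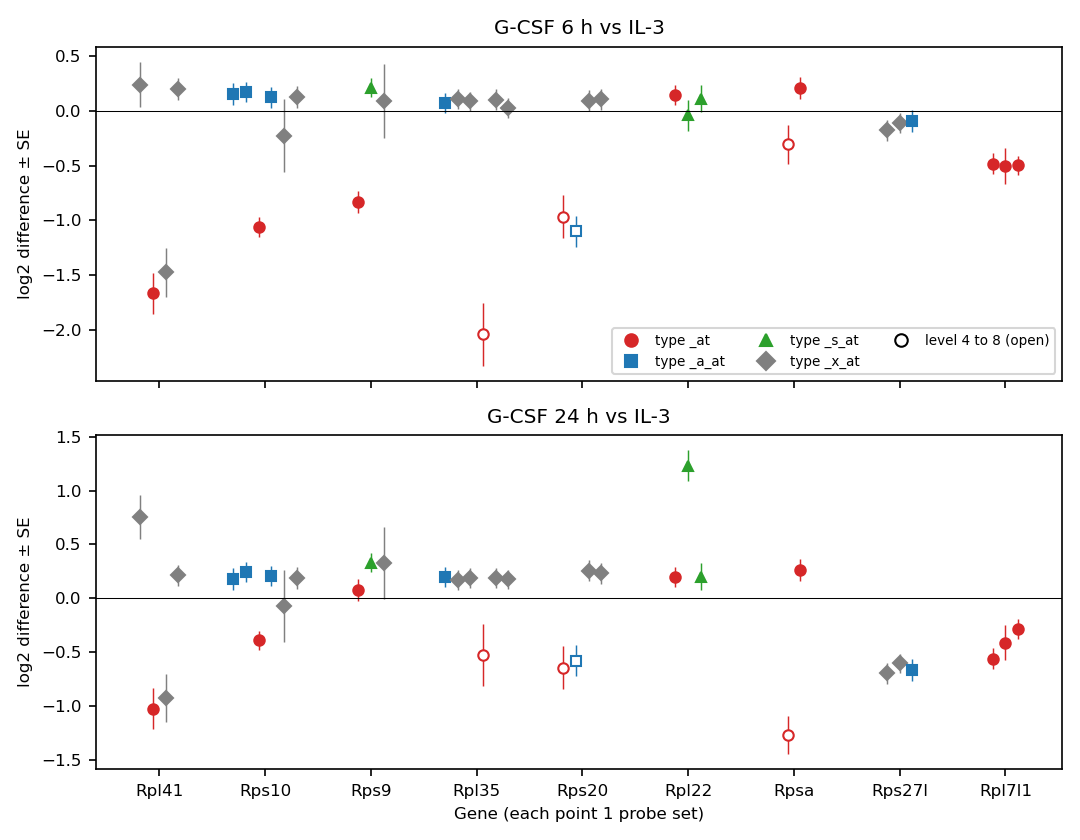
Log2 difference between G-CSF at 6 h (top) or 24 h (bottom) and IL-3 for each probe set of 9 ribosomal protein genes, with the standard error from limma. Symbols give the probe set type and open symbols an estimated level of 4 to 8. The probe sets of Rps27l and of Rpl7l1 lie together, and those of Rpl41, Rps10, Rps9, Rpl35, Rps20, Rpl22 and Rpsa split.

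The sequence around the annotated start was examined because the TOP motif begins there. Of the 48 genes, 43 were matched to a start among the RefSeq promoters kept here, of build GRCm38.p6. The promoters kept do not cover the whole genome, and the background genes come from the same promoters. Genes without a match, among them Rps14, are not in the shares below, and this does not show that they lack a start. A C at the start base followed by 4 or more pyrimidines was found in 8 of 43 genes (18.6%), against 3.0% of 27025 genes. With a C within 3 bases of the start and 5 or more pyrimidines after it the shares were 34.9% and 8.5%, and with a C within 20 bases and 4 or more pyrimidines they were 81.4% and 52.6%. Of the 7 genes called lower at 6 or 24 h, Rps10 had the tract at the start itself, Rpl12 and Rps9 within 3 bases of it, Rps25 and Rps27l within 20 bases, and Rpl41 and Rpl7l1 had none. The 40 bases around the start, of which the last 20 begin at the start base, are shown for these 7 and for Rps6, Rpl38 and Rplp2, which were not called, with the longest run of a C and 4 or more pyrimidines in those bases in capitals. Rps27l also has a shorter such run next to the start. Rps6, Rpl38 and Rplp2 are among the 8 genes with the tract at the start itself, so they do not represent the members that were not called.
Rpl12: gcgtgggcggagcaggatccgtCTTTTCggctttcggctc
Rpl41: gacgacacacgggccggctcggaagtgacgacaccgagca
Rps10: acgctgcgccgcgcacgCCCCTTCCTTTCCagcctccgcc
Rps9: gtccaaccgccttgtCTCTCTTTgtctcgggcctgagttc
Rps25: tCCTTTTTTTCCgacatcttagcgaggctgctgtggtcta
Rpl7l1: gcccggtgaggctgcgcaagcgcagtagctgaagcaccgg
Rps27l: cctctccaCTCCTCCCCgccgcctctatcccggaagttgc
Rps6: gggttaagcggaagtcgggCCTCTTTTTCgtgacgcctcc
Rpl38: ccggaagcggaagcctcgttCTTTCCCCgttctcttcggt
Rplp2: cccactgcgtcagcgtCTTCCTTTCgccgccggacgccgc

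These windows lie at chr2:32961692-32961731 for Rpl12 on the plus strand, chr10:128549149-128549188 for Rpl41 on the minus strand and chr17:27635225-27635264 for Rps10 on the minus strand. The window of Rps9 is chr7:3704021-3704060 on the plus strand, that of Rps25 chr9:44407694-44407733 on the plus strand and that of Rpl7l1 chr17:46782637-46782676 on the minus strand. Rps27l, which has 2 annotated starts in the table, is shown at chr9:66946066-66946105 on the plus strand. Rps6 lies at chr4:86857348-86857387 on the minus strand, Rpl38 at chr11:114668560-114668599 and Rplp2 at chr7:141447631-141447670, both on the plus strand. In the 300 bases from 250 before to 50 after the start, the ETS-type letters CCGGAAG occurred on either strand in 48.8% of the member genes and in 9.9% of all genes. The letters AAGATGGC of YY1 occurred in 9.3% and 3.2%, the GC box GGGCGG in 58.1% and 38.2%, and the E-box CACGTG in 9.3% and 8.1%. Such matches describe the letters only, and a gene without one is not thereby shown to lack the factor.

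Other families of the translation apparatus gave other counts from the same fit. For the counts in this and the next paragraph, 7.74% of all genes were lower and 10.5% higher at 6 h. At 24 h 12.5% of all genes were lower and 15.3% higher. Of 76 mitochondrial ribosomal protein genes, whose products build the separate ribosome of the mitochondrion, 22 fell and 1 rose at 6 h and 51 fell and 2 rose at 24 h, with medians of -0.26 and -0.65. Among them Mrps18b differed by -1.58 ± 0.09, Mrpl47 by -1.31 ± 0.10 and Mrpl12 by -1.31 ± 0.08 at 24 h. Their array medians were 0.11, 0.10, -0.05 and -0.44 in ASXL1-MT cells in IL-3 and at 2, 6 and 24 h, and 0.10, 0.11, -0.15 and -0.49 in mock cells, so that the 24 h arrays were the lowest of each culture where they were the highest for the cytosolic family. A list of 16 genes was drawn up for chaperones and importers of new ribosomal proteins. It also holds genes of other roles, such as Nacc1, Rrs1, Brix1 and Ltv1. Of the 16, 9 fell at 6 h and 13 at 24 h and 0 rose. At 24 h Tsr2, the chaperone of Rps26, differed by -1.56 ± 0.16, Grwd1, that of Rpl3, by -1.40 ± 0.12 and Ltv1, a factor of small subunit export, by -1.08 ± 0.09.

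Of 17 genes of RNA polymerase I and its factors, 8 fell and 1 rose at each of 6 and 24 h, led by Taf1d (-1.90 ± 0.08 at 6 h) and the subunit Polr1b (-1.76 ± 0.15). Of 15 other mRNAs known to carry a TOP motif 1 fell at 6 h and 2 fell at 24 h, the histone chaperone Nap1l1 (-1.27 ± 0.09) and the elongation factor subunit Eef1d (-0.70 ± 0.09), with medians of -0.06 and 0.06. Of 15 genes of the signalling that sets TOP translation, 4 fell at 6 h and 4 at 24 h, among them Larp1, which binds the TOP motif (-1.19 ± 0.09 at 6 h and -0.45 ± 0.09 at 24 h). Of 11 promoter factors known for ribosomal protein genes, Myc fell at 6 h (-1.25 ± 0.08) and its antagonist Mxd1 rose at 6 and 24 h (2.21 ± 0.11 and 3.47 ± 0.11). Fau, whose product includes a small subunit protein but whose symbol lies outside the naming rule, measured 0.20 ± 0.10 at 6 h and 0.36 ± 0.10 at 24 h and was not called. The differences between these lists and the cytosolic ribosomal proteins were not tested, since genes of a list are not independent replicates.

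**Figure D4:**
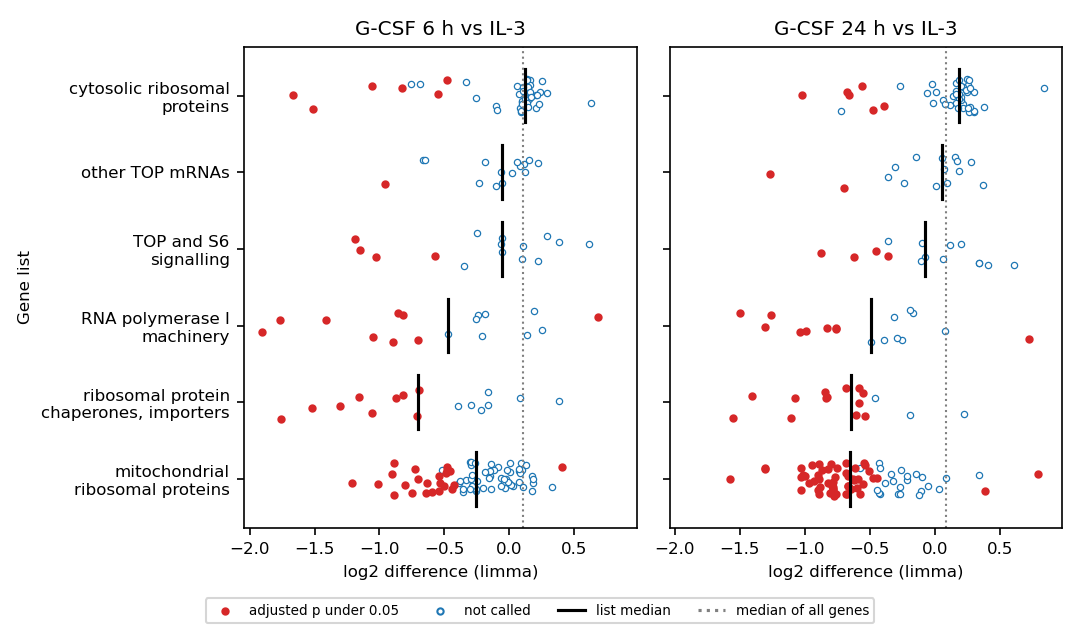
Log2 difference between G-CSF at 6 h (left) or 24 h (right) and IL-3 for single genes of 6 lists, with filled points for genes at an adjusted p under 0.05. Black bars are list medians and the dotted line is the median of all genes tested. The bar of the cytosolic ribosomal proteins lies at 0.12 and 0.19, and that of the mitochondrial ribosomal proteins at -0.26 and -0.65.

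Between ASXL1-MT and mock cells no ribosomal protein gene passed the test over the 4 time points (0 of 45, background 0% of 12599 genes; with limma 1 member and 846 genes had an unadjusted p under 0.05). The median difference was 0.07 over the members, with a median standard error of 0.06, and -0.00 over all genes. It was above 0 for 43 of 45 members and for 49.8% of all genes. The member differences share the same 8 arrays, so this count adds no independent evidence. The highest were Rps10 (0.42 ± 0.05, adjusted p = 0.696), Rpl39 (0.24 ± 0.32), Rps24 (0.17 ± 0.13), Rps6 (0.17 ± 0.12) and Rpl27a (0.16 ± 0.08). The value of Rps10 is that of 1436384_at, and its other 5 probe sets measured between 0.03 and 0.26. The lowest were Rps27 (-0.22 ± 0.30), Rps3 (-0.11 ± 0.09), Rps9 (0.01), Rps19 (0.03 ± 0.06) and Rpl22 (0.03 ± 0.06).

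By time point, with 1 array against 1 and no test, the median member difference between ASXL1-MT and mock cells was 0.10 in IL-3, -0.00 at 2 h, 0.09 at 6 h and 0.08 at 24 h. In 14 of 45 members (31.1%) ASXL1-MT cells were above mock cells at all 4 times, against 8.3% of all genes. Of the 45 members, Rpl39 at 2 h (1.07) and Rps27 at 24 h (-1.20) differed by 1 or more on the log2 scale, a size that 10.8%, 10.9%, 10.7% and 10.8% of all genes reached in IL-3 and at 2, 6 and 24 h. On its probe set under a single symbol, Rps27 had 0.73, 0.02, -0.33 and -0.81 in ASXL1-MT cells in IL-3 and at 2, 6 and 24 h. In mock cells Rps27 had 0.29, -0.02, -0.17 and 0.39. Its value was the lowest of the 8 arrays at 24 h in ASXL1-MT cells and the second highest of the 8 at 24 h in mock cells. A fit with a term for ASXL1-MT at 24 h gave -1.31 ± 0.31 for this departure, which did not pass (adjusted p = 0.704), and in that comparison 0 of 45 members and 0% of all genes were called (1 member and 743 genes with an unadjusted p under 0.05).

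**Figure D5:**
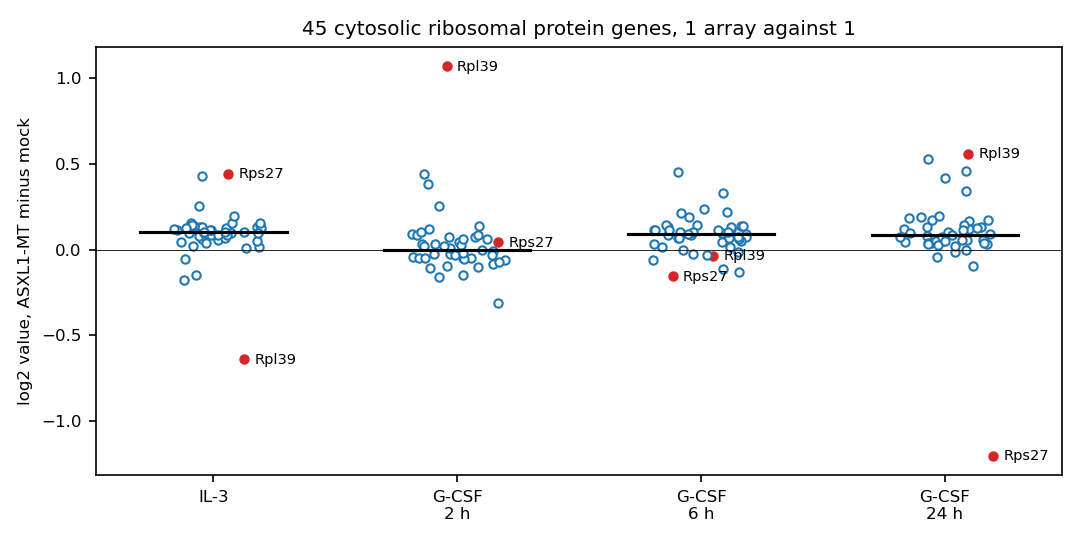
Difference in log2 value between ASXL1-MT and mock cells for the 45 tested ribosomal protein genes at each time point, 1 array against 1, with black bars at the medians. The medians lie between -0.00 and 0.10, and Rpl39 at 2 h and Rps27 at 24 h lie beyond 1 in opposite directions.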

How the data were processed

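The table holds 1 value per probe set and array. Per the labels' protocols, labelled cRNA was hybridised to Affymetrix mouse arrays and scanned with MAS software, and the submitters' processing notes name RMA. The deposited values are log2 expression centred by the authors on each probe set's median over the 8 arrays (within 5e-07 of 0). Base 2 is taken from RMA; under a natural log every difference would be 1.44 times larger.

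Centring removed the levels that the planned filter needs, so the level of each probe set before centring was inferred from how finely its stored numbers were rounded. Of the probe sets 34945 had 1 gene symbol, 932 several and 9160 none. A gene was represented by its probe set of the brightest level class (8 or more, 4 to 8, under 4), then by type (_at, _a_at, _s_at, _x_at). Genes whose second-highest array reached 6.24, the table's median level, entered the limma test (version 3.58.1, R 4.3.3, additive fit on time point and construct, 3 residual degrees of freedom, Benjamini-Hochberg over all genes, 0.05). All p-values are two-sided.

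Genes named are the 5 highest and 5 lowest members per comparison, paralogs, members of known role and genes with disagreeing probe sets. Members and lists were chosen with earlier results of these data known. One pseudogene symbol was left out. Alternatives were other scalings, filters, probe set rules and variance priors, and each array left out in turn. Correlations carry no p. The fit was checked on simulated data. The planned comparison of paralog proteins was not run.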

Additional observations from a re-analysis of the deposited data

Results flagged for a closer look

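Rpl39, a protein of the exit tunnel of the large subunit, moved in opposite directions in the 2 cultures in the first 2 h of G-CSF. It had -0.91 in IL-3 and 0.10 at 2 h in ASXL1-MT cells, and -0.27 in IL-3 and -0.96 at 2 h in mock cells. The changes were 1.01 in ASXL1-MT cells and -0.70 in mock cells, and their difference of 1.70 on the log2 scale was not tested: each value rests on 1 array. At 6 h the cultures were close, with 0.02 in ASXL1-MT cells and 0.06 in mock cells. The gene has 1 probe set under a single symbol, at an estimated level of 8 or more. The SD of that probe set over the 8 arrays was 0.515. A further probe set, which carries Rpl39 together with a gene model, measured 0.115 ± 0.138 at 6 h and 0.227 ± 0.138 at 24 h. This further probe set was not called at either time, and whether it moved in opposite directions in the 2 cultures was not examined. Rpl39 was the only member of 45 in which both cultures moved by at least 0.5 in opposite directions, over 3 changes from IL-3 examined per gene.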

How the results depend on the processing

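Every call in these comparisons rests on 2 arrays a side. Leaving out 1 array at a time, the number of members lower ranged between 0 and 3 at 6 h and between 0 and 4 at 24 h, and for the step between 24 h and 6 h limma called 0 members and 0% of all genes in either direction, while Rps9 stayed between 0.84 and 0.97 and Rpl12 between 0.71 and 0.96. Of the 128 repeats of the 16 calls with an array left out 26 stayed past the threshold and 102 did not, and 0 changed sign. The median member difference ran from 0.05 to 0.15 at 2 h, from 0.10 to 0.14 at 6 h, from 0.15 to 0.21 at 24 h and from 0.06 to 0.09 between ASXL1-MT and mock cells. Of 160 repeats under the other settings 121 kept the call, 38 lost it and 1 changed sign, Rps10 at 24 h, at 0.061 once its probe sets were averaged. At 24 h 13 members were higher with the filter at the 70th percentile of level, where 28.8% of all genes were. With a variance prior that follows the level 10 were higher, against 17.9% of genes. After averaging each gene's probe sets 1 was higher, against 12% of genes. With all probe sets fitted singly 1 was higher, against 11.8% of probe sets. At 24 h 1 was lower without a filter and 3 after averaging, where 3.87% and 8.56% of all genes were. At 6 h 1 was higher with the filter at the 70th percentile, where 26.1% of genes were. Between 24 h and 6 h 0 members were higher or lower with quantile normalization again, without a filter, after averaging or with all probe sets fitted singly, where 0.183%, 0%, 1.2% and 0.399% of all features were higher and 0.151%, 0%, 0.556% and 0.13% lower. For that step 5 were higher with the filter at the 70th percentile or the prior that follows the level, where 15% and 7.64% of all genes were, and 0 were lower with a robust prior, where 2.62% were. Allowing 5 or more pyrimidines within 3 bases of the start found the tract in 15 genes, against 8. The cause of these moves was not tested. No paired analysis was possible because the labels carry no replicate numbers, but the construct term already compares time points within each culture. Without that term limma called 6 members lower at 6 h and 5 at 24 h, where 8.81% and 13.5% of all genes were lower. An indicator for ASXL1-MT at 24 h cannot be fitted without either 24 h array. Levels above 8 have no order here, so the depth behind each bright probe set is unknown.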

Other observations

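The 110 probe sets that carry a ribosomal protein symbol together with other symbols were not counted among the members above. Some of them are cited there beside Rpl12, Rps25, Rps27 and Rpl39. Of the 110, 108 were bright enough to test singly. Their median difference from IL-3 was 0.12 at 6 h and 0.19 at 24 h. At 6 h 1 rose and 4 fell, where 5.97% and 4.81% of all probe sets fitted singly did, and at 24 h 1 rose and 3 fell, where 11.8% and 8.37% did. The probe set shared by Rpl3 and the gene models Gm5879 and Gm12816 fell at both times, by 1.78 ± 0.15 at 6 h (limma adjusted p = 0.0209) and 1.43 ± 0.15 at 24 h (adjusted p = 0.0134) on the log2 scale. A pair of probe sets shared by Rpl30 and 4 gene models fell at 6 h, by 1.19 ± 0.12 and 1.47 ± 0.23 (adjusted p = 0.0232 and 0.0377), and another shared by Rpl11 and Gm5093 fell at that time, by 1.08 ± 0.17 (adjusted p = 0.0389). A probe set shared by Rpl13 and Tax1bp3, which encodes a PDZ protein unrelated to the ribosome, rose by 1.29 ± 0.10 at 6 h and 1.72 ± 0.10 at 24 h (adjusted p = 0.0209 and 0.00924). At 24 h a probe set shared by Rpl13a and the cytokine gene Flt3l fell by 0.59 ± 0.13 (adjusted p = 0.0434), and 1 shared by Rps12 and its pseudogenes fell by 0.76 ± 0.13 (adjusted p = 0.0280). Which of the genes each probe set measured was not tested.

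Rps16, Rpl39l and Rpl3l were represented by dim probe sets. The probe set of Rps16, at a level of 3.7, had its highest value, 2.04, in mock cells at 6 h and its lowest, -2.73, in mock cells in IL-3, with an SD of 1.96 over the 8 arrays. A pair of probe sets that carry Rps16 together with other symbols were bright enough to test. They measured 0.15 ± 0.10 and 0.14 ± 0.10 at 6 h and were not called at that time.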
